A study of Homo sapiens with 65 samples.

Results

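The 9 genes described here, PPBP, PF4, ITGA2B, ITGB3, GP9, GP1BA, GP6, TUBB1 and NFE2, are genes known for their role in megakaryocytes and platelets. They were chosen as a list of gene symbols and matched to Ensembl identifiers, and all 9 were found among the 58302 gene identifiers of the deposited fragment count table. The rule uses names and no measured value, but the list was drawn up with earlier results of these data known. Total RNA was sequenced from 65 libraries of the human embryonic stem cell line H9, which fall into 19 groups by protocol, day, genotype and sorting gate. Every group carried an mCherry reporter in 1 allele of SOX17 and a GFP reporter in 1 allele of RUNX1C. WT cells had no further change, and KO cells were RUNX1 -/- through deletion of the DNA-binding domain, so reads of RUNX1 outside the deletion can still be counted. The sources used here do not say how many clones make up the KO line.

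The mesoderm protocol (BMP4, Activin A, VEGF, SCF and FGF2, then SB431542 with CHIR 99021, then VEGF, SCF, FGF2 and IGF2) gave unsorted WT and KO cells of day 0, 2 and 4 with 4 libraries in each of the 6 groups. It also gave CD34+ cells sorted on SOX17 reporter and surface CD43, the product of SPN. Of day 7 there were SOX17+ CD43- cells of WT (4 libraries) and KO (4), and SOX17- CD43- cells of WT (4) and KO (3). Of day 12 there were SOX17+ CD43- cells of WT (4) and KO (4), SOX17+ CD43+ cells of WT (2), SOX17- CD43+ cells of WT (3) and a single SOX17- CD43- library of KO. None of the libraries was of CD43+ KO cells, so the KO comparisons cover only CD43- and unsorted cells. The endoderm protocol (Activin A, CHIR and PI-103, then Activin A with DMH-1) gave unsorted WT cells of day 0, 2, 4 and 7 with 3 libraries each. The titles of the KO libraries of day 2 and 4 name a knockout, but their genotype field lacks the RUNX1 change; they are grouped here by title.

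Megakaryocytes are the bone marrow cells that shed platelets. They load their granules with chemokines, cover their surface with receptors for fibrinogen, von Willebrand factor and collagen, and build a ring of microtubules that shapes each platelet. In the embryo, megakaryocyte precursors arise early, beside erythroid and myeloid cells, from haemogenic endothelium, and RUNX1, GATA1, FLI1 and NFE2 are transcription factors known for their part in this lineage.

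The 65 libraries held 10366048 to 19081031 counted fragments each. No pair of replicates looked like one library deposited more than once: the chi-square per gene of the 85 within-group pairs lay between 4.47 and 88.23. The labels do not state separate cultures, so p-values measure the spread between libraries. RUNX1 counts were lower in KO than in WT SOX17+ CD43- cells at day 7 (log2 difference of -1.54 ± 0.24 SE, adjusted p = 0.00514) and day 12 (-2.05 ± 0.25, adjusted p = 6.27e-05), and at -1.38 ± 0.26 in SOX17- CD43- cells of day 7 they did not pass (adjusted p = 0.0617). Markers fitted the gates in part. SPN was at 485, 417 and 336 counts per 1000000 counted fragments (CPM) in the SOX17- CD43+ libraries, at 226 and 270 in the SOX17+ CD43+ libraries and at 1.54 to 3.43 in WT SOX17+ CD43- libraries of day 12. The summed level of 11 endothelial markers was 11800 to 14800 CPM in those CD43- libraries, 6060 to 6330 in SOX17+ CD43+ and 203 to 442 in SOX17- CD43+. SOX17 was at 0 to 0.173 CPM in SOX17- CD43+ cells and 132 to 180 in WT SOX17+ CD43- cells of day 12, but its 41 and 78.3 CPM in the SOX17+ CD43+ libraries overlapped the 31.3 to 70.4 of WT SOX17- CD43- cells of day 7, whose SOX17+ CD43- counterparts were at 148 to 223. CD34, which the gate required, was at 703, 635 and 209 CPM in the SOX17- CD43+ libraries against 1480 to 1900 in the day 12 WT SOX17+ CD43- libraries. All differences below are log2 fold changes with their standard error from edgeR's quasi-likelihood test, CPM values are scaled by TMM, and a gene is said to be higher or lower when its Benjamini-Hochberg adjusted p over all genes tested was under 0.05.

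**Figure D1:**
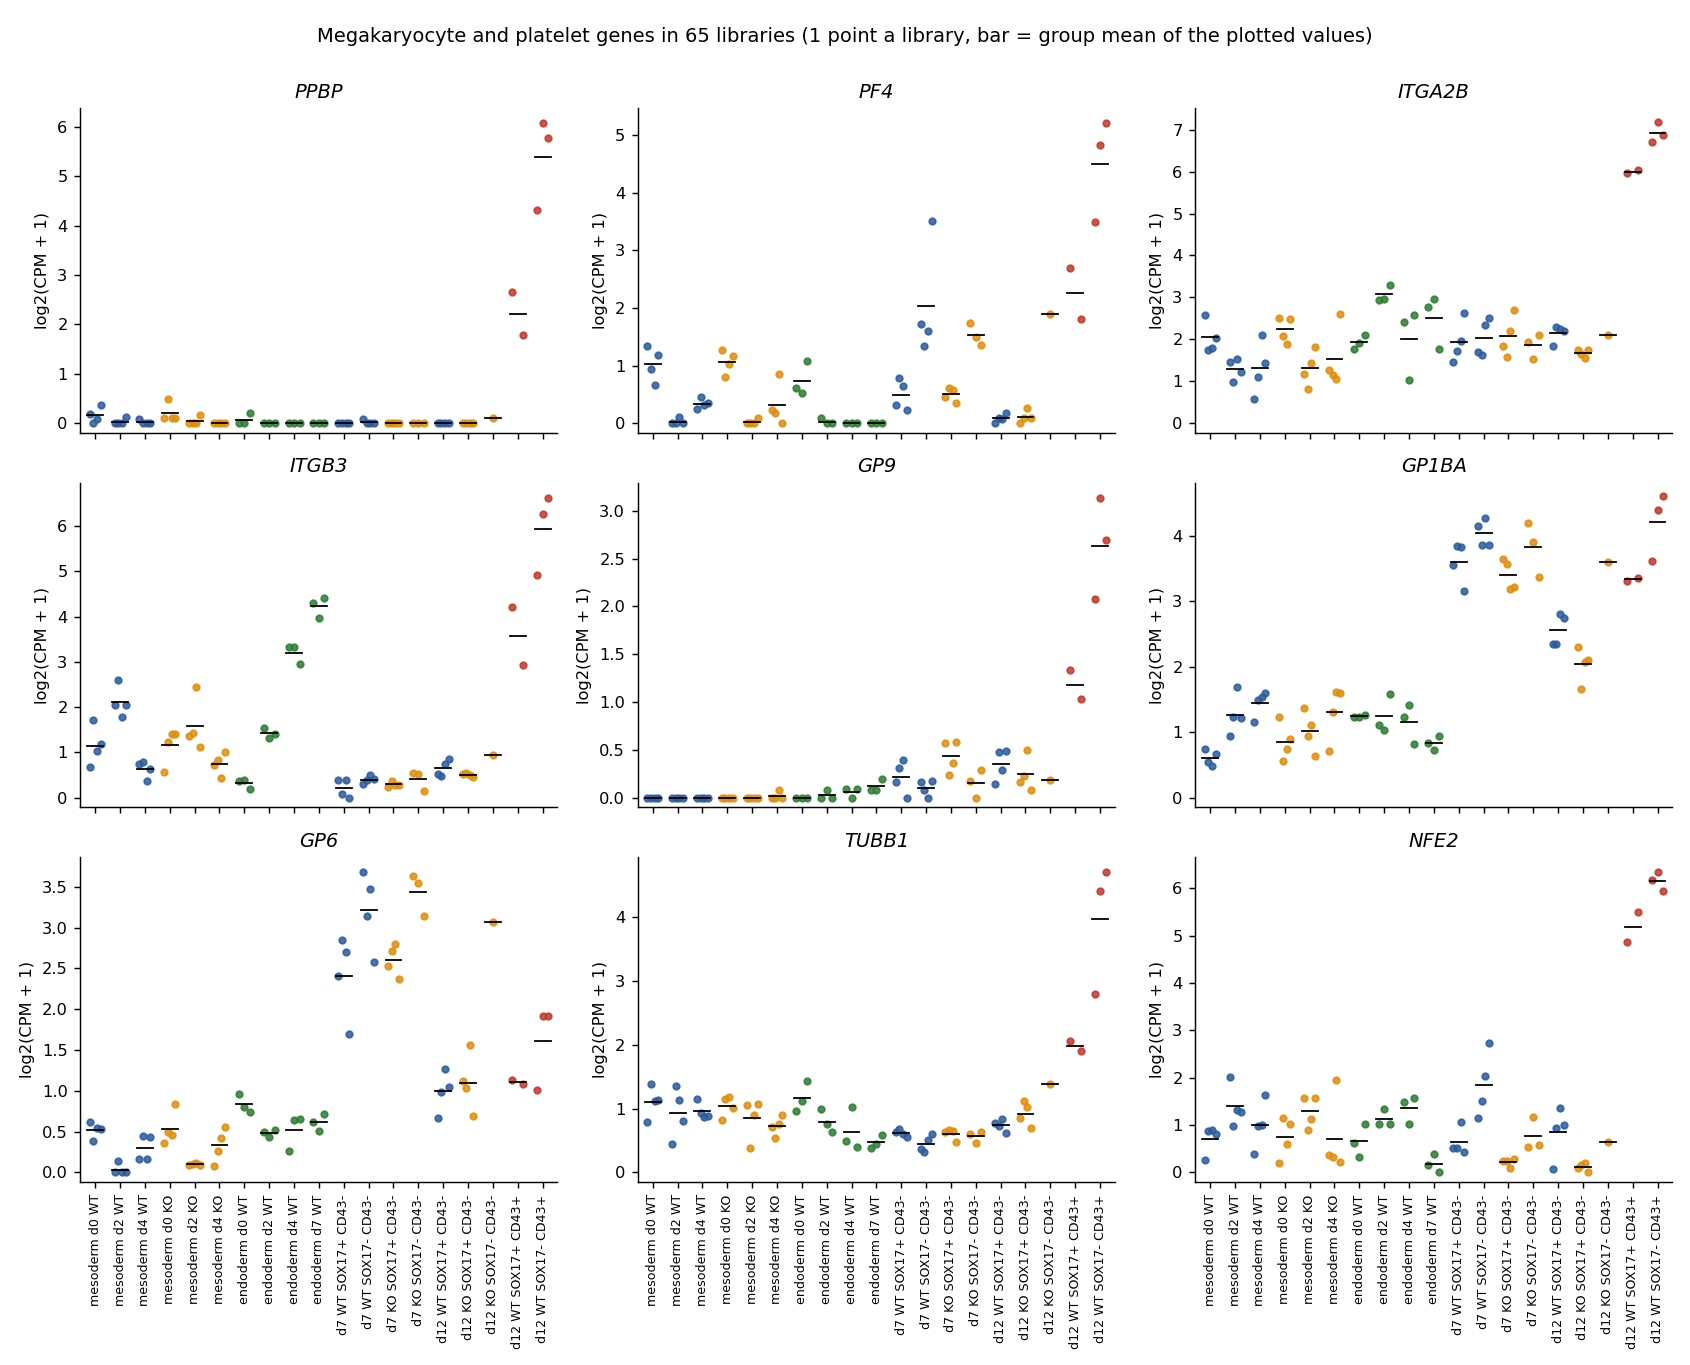
Level of each of the 9 genes, as log2(CPM + 1), in 65 libraries by group. Each point is 1 library and each bar the mean of the plotted values of a group; blue is WT, orange KO, green endoderm and red the CD43+ fractions. Of the 9 genes, 8 have their highest group mean in the SOX17- CD43+ cells of day 12, while GP6 is highest in SOX17- CD43- cells of day 7.

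Of the 9 genes, 8 had their highest group mean in the WT SOX17- CD43+ cells of day 12, and GP6 had its highest in the SOX17- CD43- cells of day 7. On the authors' length-corrected scale, RPKM (reads scaled to gene length and library size), the means over the 3 SOX17- CD43+ libraries ran from PPBP at 65 through PF4 at 40.5, NFE2 at 28.5, ITGA2B at 21.9, ITGB3 at 15.4, GP1BA at 7.31, GP9 at 6.17 and TUBB1 at 4.91 to GP6 at 0.81. For comparison between the fractions on the same scale, the SOX17+ CD43+ libraries had mean RPKM of 14.7 for NFE2, 11.4 for ITGA2B, 6.63 for PF4 and 5.42 for PPBP. The 2 chemokines headed the order in SOX17- CD43+ cells, and NFE2 and ITGA2B headed it in SOX17+ CD43+ cells.

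The sequences just upstream of the RefSeq starts of the genes are printed for those that could be matched. They come from RefSeq on the build GRCh38.p14; 5 of the 9 genes were matched, and PF4, ITGB3, GP1BA and NFE2 are named only. Each run is the gene's own strand, 5′ to 3′, and capitals mark matches to the letters AGATAA or AGATAG or TGATAA or TGATAG for GATA factors, GGAAGT for ETS factors, TGTGGT or TGCGGT for RUNX factors and TGAGTCA for NF-E2 or AP-1 on either strand.
PPBP, chr4:73988198-73988440, minus strand: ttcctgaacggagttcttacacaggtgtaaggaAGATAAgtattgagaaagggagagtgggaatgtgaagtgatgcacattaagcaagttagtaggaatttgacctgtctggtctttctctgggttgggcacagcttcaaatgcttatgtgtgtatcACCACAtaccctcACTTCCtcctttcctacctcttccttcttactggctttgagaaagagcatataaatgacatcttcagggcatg
ITGA2B, chr17:44389650-44389899, minus strand: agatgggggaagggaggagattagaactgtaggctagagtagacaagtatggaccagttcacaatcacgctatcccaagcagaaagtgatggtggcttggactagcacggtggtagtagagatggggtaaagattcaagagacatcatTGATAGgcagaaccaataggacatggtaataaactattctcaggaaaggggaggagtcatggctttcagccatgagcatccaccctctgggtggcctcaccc
GP9, chr3:129060529-129060766, plus strand: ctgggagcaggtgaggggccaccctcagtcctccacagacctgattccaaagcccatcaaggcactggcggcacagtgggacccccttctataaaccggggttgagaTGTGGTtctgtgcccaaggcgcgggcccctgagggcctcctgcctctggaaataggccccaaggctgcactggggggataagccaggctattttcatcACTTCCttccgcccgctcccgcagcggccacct
GP6, chr19:55038265-55038514, minus strand: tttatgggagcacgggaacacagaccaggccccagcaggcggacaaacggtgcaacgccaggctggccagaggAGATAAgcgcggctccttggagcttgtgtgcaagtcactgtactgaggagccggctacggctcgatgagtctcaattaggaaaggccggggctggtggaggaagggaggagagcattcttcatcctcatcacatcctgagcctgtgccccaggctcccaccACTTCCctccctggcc
TUBB1, chr20:59019179-59019253, plus strand: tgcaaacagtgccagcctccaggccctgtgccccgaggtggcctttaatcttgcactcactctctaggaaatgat
The PPBP window holds a GATA match at -217, a RUNX match at -93 and an ETS match at -80 from the RefSeq start. The ITGA2B window holds a GATA match at -102. This window stops at 44389650, upstream of the gene's 5′ end at 44389505 given below, and the bases between them were not searched. The GP9 window holds a RUNX match at -143 and an ETS match at -45, and the GP6 window a GATA match at -177 and an ETS match at -16. The TUBB1 window holds none of these letters. Each window is printed only up to its first annotated exon base, which leaves 75 bases for TUBB1. Such short letters are common: among 35116 promoters of this length, 22.3% held a GATA match, 19.5% an ETS match, 16.3% a RUNX match and 4.2% an NF-E2 or AP-1 match. The motifs do not overlap in these windows, they were searched after the sequences had been seen, and a match is a description of letters only.

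The first comparison asks how the genes differ between SOX17- CD43+ blood-like cells and the WT SOX17+ CD43- cells of the same day, which carry the endothelial markers. All 9 genes were higher and 0 lower in SOX17- CD43+ cells, where 32.3% of the 22978 genes tested were higher, 33.8% were lower and 66.2% differed in either direction. The median difference over the 9 was 5.18, against -0.02 over all genes tested. The ranges of the libraries did not overlap for 8 genes, with GP6 the exception. The share of all genes whose ranges did not overlap was not computed, here or in the comparisons below. Markers of other blood cells were higher too: 11 of 11 myeloid markers tested (median difference of 6.46), 4 of 5 mast cell and basophil markers (9.95) and 5 of 6 pan-haematopoietic markers (6.52). In the SOX17+ CD43- libraries the myeloid markers summed to 8.52 to 20.1 CPM, the mast cell and basophil markers to 0.917 to 1.3 and the pan-haematopoietic markers to 167 to 198. Erythroid markers were mixed. Of the 6 tested 4 were higher (median difference of 3.17). The 13 listed summed to 11.1 to 26.8 CPM in SOX17- CD43+ and 25.6 to 43.8 in SOX17+ CD43- libraries. In bulk RNA, fewer cells of a type and less RNA per cell cannot be told apart.

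The chemokines of the alpha granules differed most. PPBP (pro-platelet basic protein; ENSG00000163736, chr4:73987038-73988197, minus strand) was at 19, 66.4 and 54.1 CPM in the 3 SOX17- CD43+ libraries and had no count in the 4 SOX17+ CD43- libraries. With 2402 counts against none, the level was at least 1040-fold higher, taking 3 counts over the group as the floor. PF4 (platelet factor 4; ENSG00000163737, chr4:73981077-73982124, minus strand), its neighbour on chromosome 4, was at 10.2, 27.4 and 35.9 CPM against 0, 0.0648, 0.0563 and 0.134. Every CD43+ library stood far above every CD43- library. The difference was 8.54 ± 0.75 (adjusted p = 1.02e-10), which rests on 4 counts in the lower group. PF4V1 is a close copy of PF4, and the counting could have split reads between them.

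The 2 chains of the fibrinogen receptor were both higher. ITGA2B (integrin alpha IIb, CD41; ENSG00000005961, chr17:44372180-44389505, minus strand) was at 103, 144 and 117 CPM against 2.59, 3.89, 3.77 and 3.62, a difference of 5.18 ± 0.30 (adjusted p = 1.66e-14). ITGB3 (integrin beta 3, CD61, which pairs with alpha IIb and also with alpha V; ENSG00000259207, chr17:47253846-47311816, plus strand) was at 29.1, 76.4 and 97.7 CPM against 0.432, 0.389, 0.676 and 0.804, a difference of 6.92 ± 0.41. ITGA2B varied less than ITGB3 among the CD43+ libraries. AC068234.1, a protein-coding gene on the same strand that shares exons with ITGB3, was at 17.4 to 52.6 CPM in the same CD43+ libraries, and reads of the pair may have been split between them.

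GP9 and GP1BA, which encode subunits of the von Willebrand factor receptor, were both higher. GP9 (glycoprotein IX; ENSG00000169704, chr3:129060767-129062406, plus strand) was at 3.21, 7.79 and 5.46 CPM against 0.108, 0.389, 0.225 and 0.402, a difference of 4.34 ± 0.48. GP1BA (glycoprotein Ib alpha, which binds the ligand; ENSG00000185245, chr17:4932297-4935030, plus strand) was at 11.3, 20.1 and 23.3 CPM against 4.10, 4.08, 5.97 and 5.70. Its difference was 1.93 ± 0.24, and the CD43- libraries held 330 counts of GP1BA in all. CHRNE overlaps GP1BA on the opposite strand and was at 2.26 to 3.00 CPM in these CD43+ libraries and 10.4 to 12.6 in the CD43- ones. GP6 (the collagen receptor glycoprotein VI; ENSG00000088053, chr19:55013705-55038264, minus strand) was at 1.01, 2.77 and 2.79 CPM against 0.593, 0.972, 1.41 and 1.07. The lowest CD43+ library lay inside the CD43- range, the difference was 1.16 ± 0.40 (adjusted p = 0.013), and the call was lost in limma (adjusted p = 0.0947) and without SOX17- CD43+ library 2 or 3 or SOX17+ CD43- library 1 (adjusted p up to 0.0794).

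TUBB1 (beta-1 tubulin of the platelet microtubule ring; ENSG00000101162, chr20:59019254-59026654, plus strand) was at 5.94, 20.2 and 25.3 CPM against 0.701, 0.648, 0.789 and 0.536, a difference of 4.70 ± 0.33. NFE2 (the p45 subunit of the factor NF-E2, needed for platelet release; ENSG00000123405, chr12:54292111-54301121, minus strand) was at 70.9, 79.8 and 60.5 CPM against 0.0539, 0.907, 1.58 and 1.01, a difference of 6.36 ± 0.45. NFE2 was even among the CD43+ libraries, whereas TUBB1 was uneven. ATP5F1E overlaps TUBB1 on the opposite strand and was at 87.2 to 110 CPM in these CD43+ libraries and 67.8 to 75.3 in the CD43- ones.

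Library 1 of the SOX17- CD43+ group was low for most of the genes. The mean of libraries 2 and 3 over library 1 was 3.83 for TUBB1, 3.18 for PPBP, 3.12 for PF4, 2.99 for ITGB3, 2.75 for GP6, 2.07 for GP9 and 1.92 for GP1BA, but 1.26 for ITGA2B and 0.99 for NFE2. The summed level of 7 mast cell and basophil markers was 227, 322 and 609 CPM in libraries 1, 2 and 3, that of 13 erythroid markers 11.1, 15.6 and 26.8, that of 12 myeloid markers 3960, 5150 and 5220, and that of 6 pan-haematopoietic markers 1420, 1620 and 1540. All markers of these 4 lists had counts in the SOX17- CD43+ libraries. Library 1 was the lowest of the 3 by each of these sums, and their part in the differences was not tested.

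**Figure D2:**
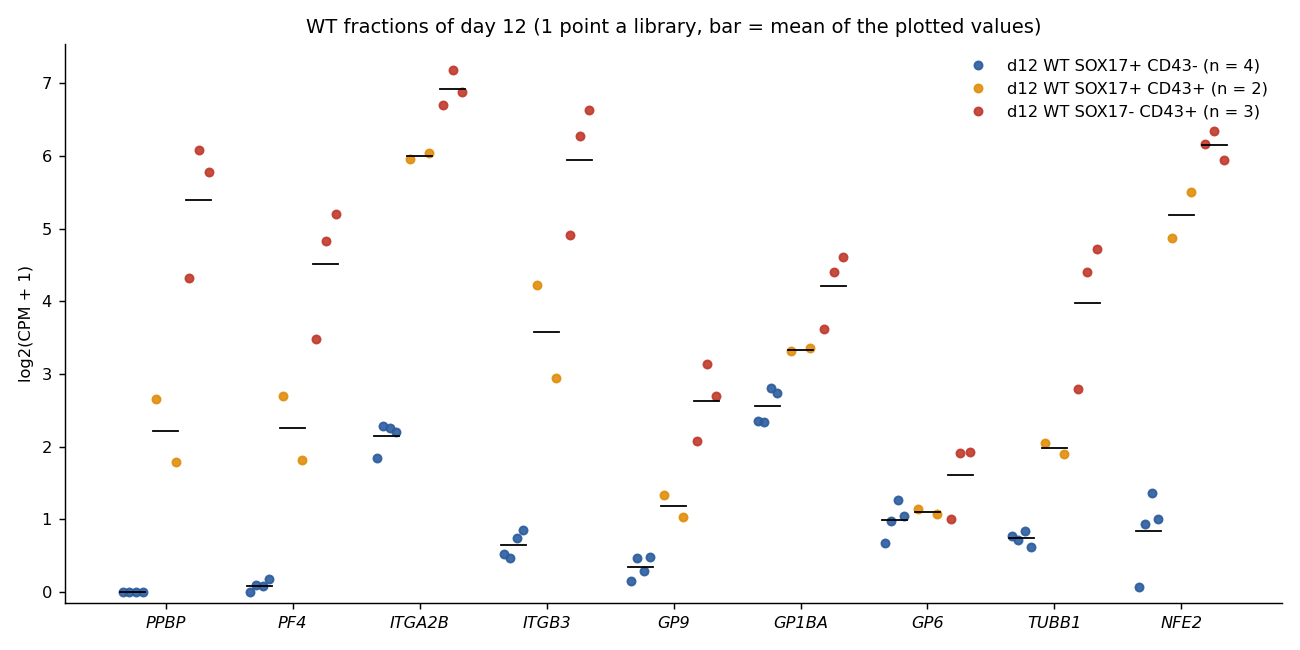
The 9 genes in the 3 WT fractions of day 12 on the log2(CPM + 1) axis: SOX17+ CD43- (blue, 4 libraries), SOX17+ CD43+ (orange, 2) and SOX17- CD43+ (red, 3). Points are libraries and bars means of the plotted values. For 8 genes the red points lie above the orange ones, and for GP6 the fractions overlap. The share of all genes that separate in this way was not computed.

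The other 72 megakaryocyte and platelet genes of a wider list, of which 70 were tested, moved both ways in the same comparison. In SOX17- CD43+ cells 37 were higher and 22 lower, with a median difference of 0.75. Of all 22978 genes tested, 32.3% were higher and 33.8% lower, and these shares also stand beside the counts by class that follow. Of 18 surface receptors 10 were higher and 6 lower, of 9 granule proteins 3 and 4, of 22 cytoskeletal and signalling genes 10 and 7, of 6 enzymes 5 and 1, and of 15 transcription factors 9 and 4. GATA1, a master factor of megakaryocyte and erythroid cells, was higher by 8.00 ± 0.53 (13 ± 3.63 CPM, SD, n = 3, against 0.0491 ± 0.0622, n = 4). P2RY12, the ADP receptor, was higher by 7.54 ± 0.71, and F13A1, the A chain of factor XIII that is also made by macrophages, by 7.47 ± 0.75. The lower genes were led by genes that endothelium also expresses: VWF (von Willebrand factor) at 2.03 ± 1.15 against 271 ± 52 CPM, a difference of -7.01 ± 0.31, GNG11 at -4.40 ± 0.29 and F2RL2 at -4.35 ± 0.24.

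The second comparison asks whether the genes were also higher in the CD43+ cells sorted as SOX17+. Against the same SOX17+ CD43- libraries, 8 of the 9 genes were higher, where 15.5% of all genes tested were higher and 26.5% differed either way. Because this comparison and the first share their controls, the values stand side by side and are not compared. PPBP was at 5.31 and 2.44 CPM, 117 counts against none, at least 88.6-fold higher. PF4 was at 5.50 and 2.52 CPM, a difference of 5.95 ± 0.88. Both chemokines were in the range of a few CPM here.

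ITGA2B was at 61.3 and 64.7 CPM (4.24 ± 0.31) and ITGB3 at 17.7 and 6.66 (4.45 ± 0.43). NFE2 was at 28.2 and 44.3 CPM (5.42 ± 0.46), and TUBB1 at 3.16 and 2.74 (2.18 ± 0.39). All 4 stood above every SOX17+ CD43- library. GP9 was at 1.52 and 1.04 CPM (2.26 ± 0.59, adjusted p = 0.00521), a call that was lost without SOX17+ CD43+ library 1 (adjusted p = 0.0877). GP1BA was at 8.91 and 9.26 CPM (0.93 ± 0.28, adjusted p = 0.0128), lost without either SOX17+ CD43+ library. GP6, at 1.20 and 1.11 CPM, did not pass (0.25 ± 0.51, adjusted p = 0.764). Of the 70 other genes of the wider list 29 were higher and 10 lower, where 15.5% of all genes were higher and 10.9% lower. PLEK, the platelet protein kinase C substrate pleckstrin, was higher by 5.66 ± 0.26, RGS18 by 5.12 ± 0.40 and the ATP-gated channel P2RX1 by 4.57 ± 0.35. F2R, the thrombin receptor, was lower, at -1.09 ± 0.16.

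Between the 2 CD43+ fractions themselves, 7 of the 9 genes were higher in SOX17- cells, where 14.6% of genes were higher and 37.5% differed either way. The median difference was 2.08 over the 9 and -0.02 over all genes. The granule chemokine PPBP led with 3.56 ± 0.51 (adjusted p = 0.000107), PF4 followed with 2.59 ± 0.60, TUBB1 with 2.53 ± 0.38, ITGB3 with 2.47 ± 0.40 and GP9 with 2.08 ± 0.51. For each of these 5 genes the lowest SOX17- library was above the highest SOX17+ library. GP1BA (1.00 ± 0.29, adjusted p = 0.00789) and ITGA2B (0.94 ± 0.31, adjusted p = 0.0187) passed by less. The GP1BA call was lost without SOX17+ CD43+ library 1, and that of ITGA2B without either SOX17+ CD43+ library or without SOX17- CD43+ library 2. NFE2 (0.94 ± 0.42, adjusted p = 0.0799) and GP6 (0.91 ± 0.50, adjusted p = 0.154) did not pass. NFE2, whose library ranges did not overlap, passed without the filter on low counts, in limma (adjusted p = 0.00259) and with the 2 groups alone. GP6 passed when libraries whose numbers follow each other were taken as a block (adjusted p = 0.0467) and without SOX17- CD43+ library 1 (adjusted p = 0.0463).

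Other genes of the wider list that were higher in the SOX17- CD43+ cells numbered 21 of 70, with 16 lower. Of all genes, 14.6% were higher and 22.9% lower. GP5, the partner of GP1BA and GP9 in the von Willebrand factor receptor, was higher by 3.66 ± 0.72, CLEC1B, the podoplanin receptor of platelets, by 2.89 ± 0.61 and GATA1 by 2.69 ± 0.43. VWF was lower, at -5.91 ± 0.31. Most lists of blood markers differed between the 2 fractions as well. The 13 erythroid markers overlapped, at 22.2 to 24.7 CPM in SOX17+ CD43+ and 11.1 to 26.8 in SOX17- CD43+. The 7 mast cell and basophil markers summed to 23.8 to 25.8 CPM in SOX17+ CD43+ and 227 to 609 in SOX17- CD43+, with a median difference of 3.94 over the 5 tested, TPSAB1 and TPSB2 being at 0 in SOX17+ CD43+. The 12 myeloid markers summed to 900 to 1260 CPM in SOX17+ CD43+ and 3960 to 5220 in SOX17- CD43+, and the 6 pan-haematopoietic markers to 662 to 838 and 1420 to 1620. Their part in the differences was not tested.

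The SOX17- CD43+ cells of day 12 were also set against the WT SOX17- CD43- cells of day 7. Day and CD43 gate differ together here and cannot be told apart. Of the 9 genes 7 were higher at day 12, where 30% of all genes were higher, and 1 was lower, where 33% were lower; 62.9% differed either way. PPBP had 2402 counts against 1, a ratio of 2950 with a counting interval (exact, 95%) of 530 to 117000, and such intervals cover counting error only. ITGB3 was higher by 7.75 ± 0.44, GP9 by 6.04 ± 0.58, TUBB1 by 5.58 ± 0.36, ITGA2B by 5.27 and NFE2 by 4.64 ± 0.40. PF4 was higher by 2.65 ± 0.46, but its ranges overlapped, since library 4 of day 7 held 10.4 CPM and library 1 of day 12 held 10.2.

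The receptor genes GP1BA and GP6 were not among the higher ones. GP6 was lower at day 12, at -1.94 ± 0.36 (adjusted p = 3.56e-05), from 11.8, 7.85, 10.1 and 4.99 CPM in the day 7 libraries. GP1BA was at 16.8, 13.5, 18.4 and 13.5 CPM at day 7, inside the range of the day 12 blood libraries, and its difference of 0.29 ± 0.23 did not pass (adjusted p = 0.286; it passed without SOX17- CD43+ library 1, adjusted p = 0.0478). Of the other 70 genes, 41 were higher and 16 lower at day 12, where 30% of all genes were higher and 33% lower. F13A1 and P2RY12 had no count at day 7, and SYK, the kinase downstream of GP6 and CLEC1B, was higher at day 12 by 8.57 ± 0.42.

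GP1BA and GP6 were also followed through the CD43- cells. In unsorted WT cells of day 4, GP1BA was at 1.22, 1.81, 1.90 and 2.04 CPM and GP6 at 0.122, 0.362, 0.118 and 0.352. In SOX17+ CD43- cells of day 7, GP1BA was at 10.7, 13.4, 13.2 and 7.88 CPM and GP6 at 4.31, 6.18, 5.49 and 2.25. Every day 7 library was above every day 4 library for both genes. Of the 5 genes that could be tested between these groups, GP1BA (2.71 ± 0.24) and GP6 (4.25 ± 0.45) were higher at day 7, where 31.7% of 20028 genes were higher and 62.8% differed either way. TUBB1 was lower, at -0.80 ± 0.25 (adjusted p = 0.0174), where 31.1% were lower; its call was lost in DESeq2, without the filter on low counts and without day 4 library 1. ITGA2B (0.87, adjusted p = 0.162) and NFE2 (-0.87, adjusted p = 0.192) did not pass, but ITGA2B did without day 4 library 3 and NFE2 without day 4 library 1. Sorting and day changed together in this comparison, and they cannot be told apart.

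By day 12 both receptor genes had fallen again in SOX17+ CD43- cells. In WT, GP1BA fell to 4.08 to 5.97 CPM, a difference of -1.18 ± 0.23 (adjusted p = 0.000496), and GP6 fell by 2.17 ± 0.36 (adjusted p = 8.74e-05) to 0.593 to 1.41 CPM. They were the 2 genes of the 9 that were lower, where 9.23% of all genes were lower and 17.8% differed either way. In KO the same 2 genes were lower, GP1BA at -1.64 ± 0.24 (adjusted p = 2.33e-05) and GP6 at -2.08 ± 0.35 (adjusted p = 0.00012), where 7.29% of genes were lower and 13.3% differed. KO levels went from 11.5, 10.9, 8.14 and 8.34 CPM to 3.95, 2.15, 3.23 and 3.31 for GP1BA, and from 4.80, 5.56, 5.94 and 4.17 to 1.17, 1.05, 1.95 and 0.613 for GP6. No day 12 library overlapped a day 7 library for either gene in either genotype. The difference between genotypes in this change was small beside its error, -0.45 ± 0.33 for GP1BA and 0.08 ± 0.50 for GP6 (unadjusted p = 0.179 and 0.867). PF4 (-2.69 ± 1.11) and ITGB3 (1.68 ± 0.66) did not pass in WT, although both did in DESeq2 and without the filter on low counts.

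**Figure D3:**
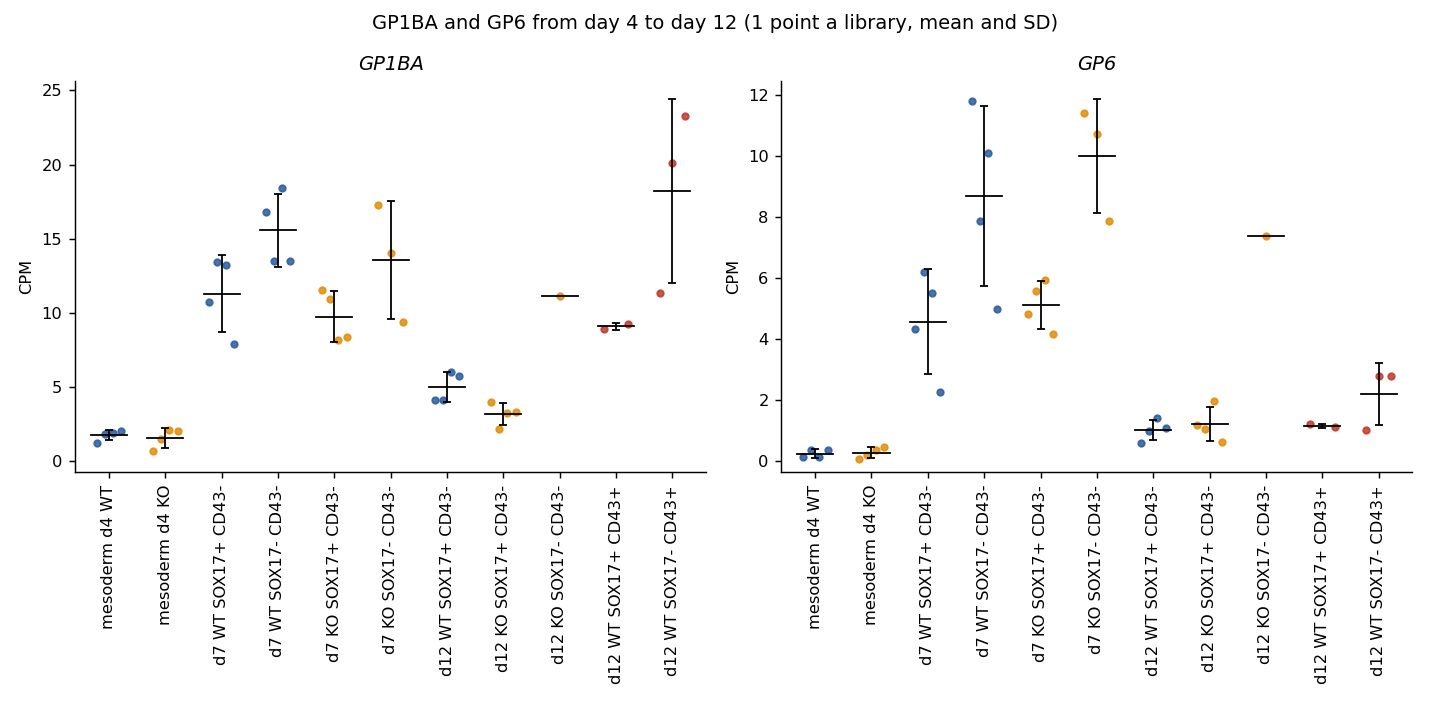
GP1BA (left) and GP6 (right) in CPM from unsorted day 4 cells to the sorted fractions of day 7 and day 12. Points are libraries, with the mean and SD of each group (blue WT, orange KO, red CD43+). Both genes are above 2 CPM in every day 7 library, and in SOX17+ CD43- cells of day 12 GP6 is under 2 CPM and GP1BA under 6 CPM.

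Of the wider list, 22 genes rose and 9 fell from day 7 to day 12 in WT, where 8.57% of all genes rose and 9.23% fell. In KO 14 rose and 12 fell, where 6.0% of all genes rose and 7.29% fell. THBS1 (thrombospondin 1) rose by 5.12 ± 0.67 in WT and 4.60 ± 0.66 in KO, and SYK by 4.72 ± 0.49 and 2.81 ± 0.41. Overlapping transcripts leave a limit on GP1BA and GP6, because the sources used here do not say whether the counting used strand. AC011476.3, an antisense gene, and AC011476.2, a processed transcript on the same strand, share exons with GP6, and reads of the same-strand pair may be split however strand was used. They were at 3.32 to 4.20 and 5.65 to 6.18 CPM in WT SOX17+ CD43- cells of day 7, and at 2.59 to 3.02 and 3.63 to 5.07 at day 12. In day 7 endoderm they reached 5.03 to 8.37 and 10.8 to 12.6 CPM while GP6 had a mean of 0.534 CPM. CHRNE over GP1BA was at 11.4 to 14.9 CPM at day 7 and 10.4 to 12.6 at day 12. By their group means, AC011476.3 went from 3.90 to 2.75 CPM and AC011476.2 from 5.88 to 4.38 between these days, beside 4.56 to 1.01 for GP6.

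Within day 7, the SOX17+ and SOX17- fractions of WT differed in 2 of the 9 genes. PF4 and NFE2 were lower in SOX17+ cells, where 0.67% of all genes were lower and 1.6% differed either way. PF4 was at 0.243, 0.727, 0.570 and 0.178 CPM in SOX17+ and 2.28, 1.53, 2.02 and 10.4 in SOX17- cells. The groups did not overlap and the difference was -3.20 ± 0.58 (adjusted p = 0.0034). It was -2.15 without SOX17- library 4 and kept its call, and in a fit of the 2 groups alone it missed the threshold (adjusted p = 0.0526).

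NFE2 was at 0.425, 0.424, 1.09 and 0.355 CPM in SOX17+ and 1.23, 1.84, 3.07 and 5.64 in SOX17- cells, a difference of -2.30 ± 0.49 (adjusted p = 0.0113). Its call was lost with the 2 groups alone (adjusted p = 0.0626) and without library 4 of either group (adjusted p up to 0.0841). SOX17- library 4, the highest for PF4 and NFE2, also had the highest sum of the 6 pan-haematopoietic markers (261 CPM against 192 to 200) and of the 13 erythroid markers (41.5 against 25.8 to 35.3), with PTPRC at 0 in all 4 libraries. Its 12 myeloid markers summed to 17.4 CPM against 14.7 to 16.5, and the part of these markers in the result was not tested. GP6, at -0.93 ± 0.30, did not pass (adjusted p = 0.146), but it passed without the filter on low counts (adjusted p = 0.0382) and when libraries numbered in 1 run were treated as a block.

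In KO none of the 9 genes passed in edgeR, where 0.67% of all genes differed either way. At an unadjusted p under 0.05 there were 3, for which no share of all genes is given, and DESeq2 and limma each called 0. PF4 was at 0.365, 0.527, 0.495 and 0.278 CPM in SOX17+ and 2.34, 1.82 and 1.55 in SOX17- cells, with no overlap, and its difference of -2.17 ± 0.66 did not pass (adjusted p = 0.148). PF4 passed without the filter on low counts and with the 2 groups alone (adjusted p = 0.00311). GP6 was at -0.95 ± 0.32 (adjusted p = 0.241), and it passed with these runs as a block and with the 2 groups alone (adjusted p = 0.0135). In the wider list, ITGA2, the alpha chain of the collagen-binding integrin, was higher in SOX17+ cells by 2.39 ± 0.26 in WT and 2.33 ± 0.28 in KO, and ADRA2A, the alpha-2A adrenergic receptor, was lower, at -1.86 ± 0.33 and -1.58 ± 0.34. GFI1B, a repressor needed for megakaryocyte and erythroid maturation, was lower in WT, at -1.78 ± 0.37. Its levels were 1.05 ± 0.36 CPM (SD, n = 4) in SOX17+ and 3.61 ± 3.3 (n = 4) in SOX17- cells.

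The KO comparisons ask what the loss of the RUNX1 DNA-binding domain did to these genes. None of the 9 passed in edgeR in the 3 sorted comparisons, where few genes did at all: 0.0566% of genes at day 7 in SOX17+ cells, 0.0087% at day 7 in SOX17- cells and 0.187% at day 12 in SOX17+ cells. Those lower in KO SOX17+ cells made up 0.0479% of genes at day 7 and 0.183% at day 12. At an unadjusted p under 0.05 there were 1, 2 and 3 of the 9 genes. The shares above are for the adjusted threshold and cannot be set beside these counts. No share of all genes at the unadjusted threshold is given. DESeq2 called 0, 0 and 1, and limma 0 in each. None passed in unsorted cells of day 0, 2 or 4 either, where 0.0% of 21612 genes were called and none of the 6 genes tested was under an unadjusted p of 0.05 in edgeR or called by DESeq2 or limma.

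NFE2 had lower mean levels in KO in all 3 sorted comparisons without passing in edgeR. At day 7 in SOX17+ cells it was at 0.182, 0.176, 0.0707 and 0.222 CPM in KO against 0.425, 0.424, 1.09 and 0.355 in WT, with no overlap (-1.75 ± 0.79, adjusted p = 1.0). At day 7 in SOX17- cells it was at 0.456, 1.25 and 0.498 CPM against 1.23, 1.84, 3.07 and 5.64, where the highest KO library reached into the WT range (-1.98 ± 0.53, adjusted p = 0.658). At day 12 it was at 0.0617, 0.116, 0.154 and 0 CPM against 0.0539, 0.907, 1.58 and 1.01, where WT library 1 lay among the KO libraries (-3.23 ± 0.83, adjusted p = 0.2).

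The day 12 difference in NFE2 passed in DESeq2, without the filter on low counts and without WT library 1 (adjusted p = 0.0132 in edgeR), and the day 7 SOX17- difference passed without the filter (adjusted p = 0.00696). All these values are low: NFE2 had 6 counts in the day 12 KO group and 58 in WT. Some blood markers were also lower in KO at day 12, and others overlapped. SPN was at 0.174 to 0.513 CPM in KO and 1.54 to 3.43 in WT, a difference of -2.78 ± 0.37 (adjusted p = 0.000158), and the 12 myeloid markers summed to 2.61 to 3.79 CPM in KO and 8.52 to 20.1 in WT, with PRTN3 and ELANE at 0 in both. The 6 pan-haematopoietic markers summed to 165 to 190 CPM in KO and 167 to 198 in WT. The 13 erythroid markers summed to 23.9 to 42.9 and 25.6 to 43.8, and the 7 mast cell and basophil markers to 0.858 to 1.95 and 0.917 to 1.3. Their part in the result was not tested.

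**Figure D4:**
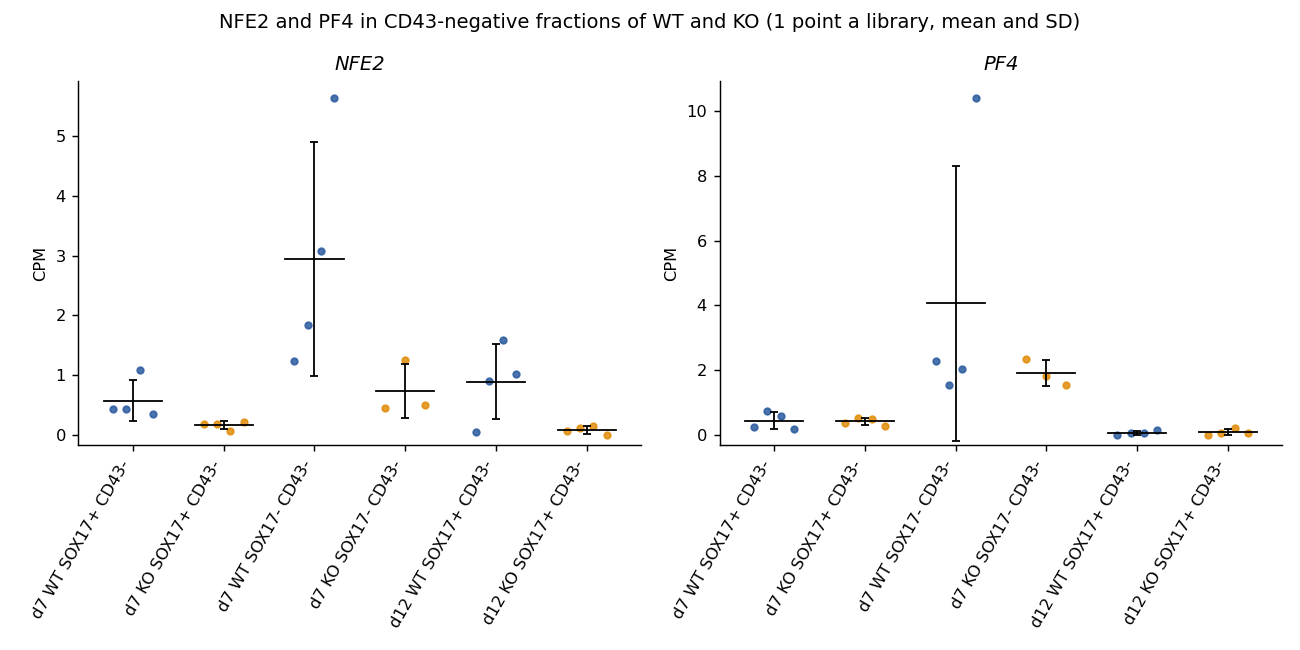
NFE2 (left) and PF4 (right) in CPM in WT (blue) and KO (orange) CD43- fractions. Points are libraries, with the mean and SD of each group. NFE2 means are lower in KO in each of the 3 comparisons, without passing the test, and 1 WT SOX17- library of day 7 stands at 10.4 CPM of PF4.

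Among the other genes at day 12, ITGA2B was at 2.34, 2.15, 1.95 and 2.33 CPM in KO, below every WT library (-0.66 ± 0.31), and GP1BA was also below every WT library (-0.65 ± 0.24), both with an adjusted p of 1.0. PF4 in SOX17- cells of day 7 was at -1.08 ± 0.52 (adjusted p = 0.878), a value that shrank to -0.03 without WT library 4. PPBP had no count in either genotype in the SOX17+ CD43- cells of day 7 and 12, so an effect on it was not detectable at this depth. Whether the KO effect differed between the day 7 fractions, or between day 7 and day 12 in SOX17+ cells, was tested directly: in edgeR none of the 9 genes passed, 0.0% and 0.00435% of all genes did, none of the 9 was under an unadjusted p of 0.05, and DESeq2 and limma called 0. For NFE2 these differences were -0.23 ± 1.22 and -1.48 ± 1.30. In the wider list 1 gene, RUNX1 itself, was lower in KO at day 7 in SOX17+ cells, 0 in SOX17- cells, and 5 at day 12. Of all genes, 0.0479%, 0.00435% and 0.183% were lower in these comparisons. RAB27B, a GTPase of granule release, was lower at day 12, at -2.85 ± 0.52 (1.19 ± 0.872 CPM, SD, n = 4, against 8.82 ± 5.82, n = 4).

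The early mesoderm libraries showed the stem cell background of the genes. In WT, 3 of the 6 genes tested changed from day 0 to day 2, where 45.1% of 21612 genes did. ITGB3 rose from 0.601, 2.29, 1.05 and 1.26 CPM to 3.12, 5.04, 2.46 and 3.11 (1.41 ± 0.44, adjusted p = 0.0114), and GP1BA rose by 1.45 ± 0.41 (adjusted p = 0.00625). ITGA2B (-1.10, adjusted p = 0.0861) and NFE2 (1.43, adjusted p = 0.118) did not pass, but both did with the 2 groups alone (adjusted p = 0.0175 and 0.0265). PF4 fell from 61 counts over the 4 libraries to 1, a ratio of 51.1 with a counting interval of 8.84 to 2050. Day 0 stem cells held about 1 CPM of PF4 (1.08 ± 0.412, SD, n = 4) and day 2 cells nearly none.

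From day 2 to day 4, 2 of the 6 genes changed, where 51.4% of genes did, 25.9% higher and 25.5% lower. ITGB3 fell by 2.58 ± 0.47 to 0.671, 0.724, 0.296 and 0.564 CPM, below every day 2 library. PF4 rose from 1 count to 17, a ratio of 12.7 (1.98 to 529), and its call was lost without day 2 library 1 (adjusted p = 0.0507). PPBP, GP9 and GP6 were under the filter on low counts in these libraries and were not tested; GP9 had no count in any of the 12 WT libraries of day 0 to 4. Of the wider list, 11 of 60 genes rose and 23 fell by day 2, where 22.2% of all genes rose and 22.9% fell. Between day 2 and day 4, 30 of the list rose and 14 fell. GATA2 rose by 5.72 ± 0.56 by day 2, and TAL1, which is needed for blood specification, by 7.61 ± 0.50 from day 2 to day 4.

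In the endoderm protocol ITGB3 was the 1 gene of the 6 tested that was higher at day 7 than at day 0. ITGB3 rose from 0.296, 0.308 and 0.148 CPM at day 0 through 1.91, 1.51 and 1.65 at day 2 and 9.13, 9.03 and 6.75 at day 4 to 18.8, 14.6 and 20.3 at day 7. Each day lay above the one before it in every library. The difference of day 7 from day 0 was 6.10 ± 0.27 (adjusted p = 1.87e-10), where 35.2% of 21542 genes were higher and 68.3% differed either way. ITGB3 of day 7 endoderm overlapped the SOX17+ CD43+ blood fraction in level (6.66 and 17.7 CPM), in cells where PPBP and PF4 had no count and GP9 had 4. The overlapping gene AC068234.1 had a mean of 0.557 CPM at day 0 and was at 9.88 to 12.9 CPM at day 7.

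ITGA2B, its partner chain in platelets, had means of 2.84 ± 0.455, 7.45 ± 1.21, 3.45 ± 2.12 and 5.04 ± 2.31 CPM (SD, n = 3) at day 0, 2, 4 and 7, and day 7 did not pass against day 0 (0.86 ± 0.43, adjusted p = 0.0908). ITGA2B did pass without the filter on low counts (adjusted p = 0.00145), with the 2 groups alone (adjusted p = 0.0459) and without day 7 library 3 (adjusted p = 0.02). GP1BA (-0.78, adjusted p = 0.061) passed with the 2 groups alone (adjusted p = 0.0276). TUBB1 (-1.68 ± 0.45, adjusted p = 0.00443) and NFE2 (-1.92 ± 0.72, adjusted p = 0.0279) were lower at day 7, where 33.1% of genes were lower. The NFE2 call, on 27 and 7 counts, was lost in limma (adjusted p = 0.0778) and without day 0 library 3, day 7 library 1 or day 7 library 3. Of 50 genes of the wider list tested, 20 rose and 22 fell, where 35.2% of all genes rose and 33.1% fell. VWF rose by 8.77 ± 0.27 and HHEX, a factor of endoderm and blood, by 7.88 ± 0.16.

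**Figure D5:**
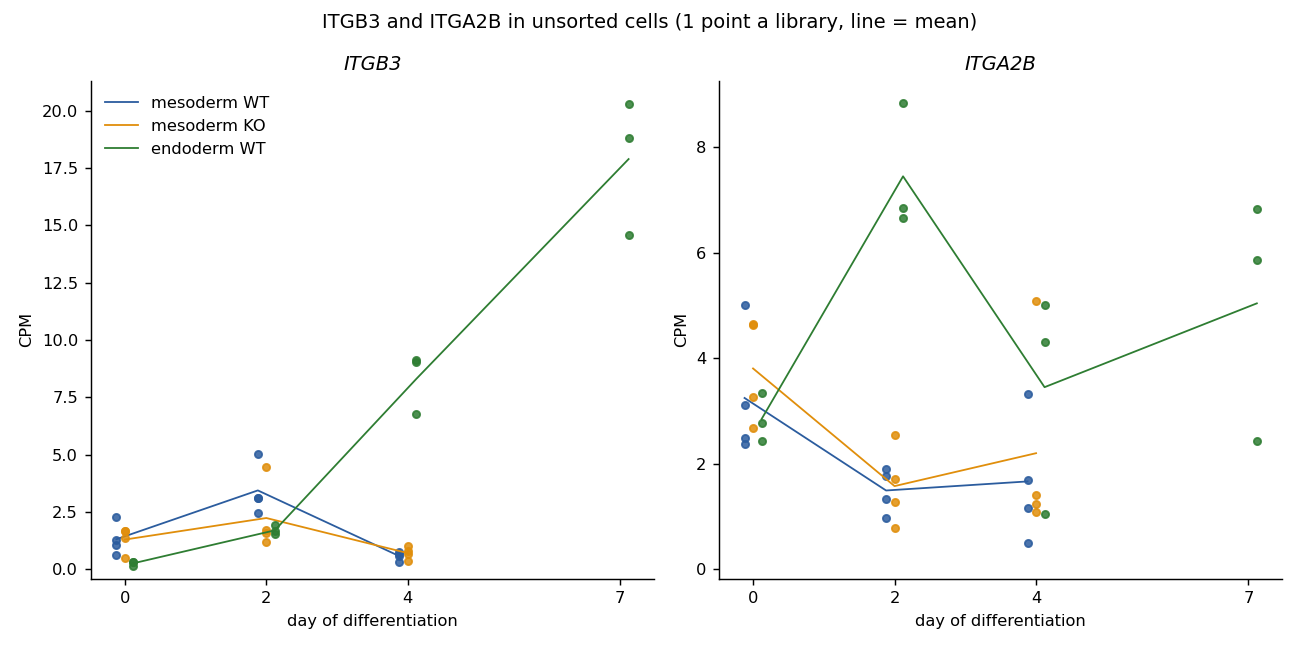
ITGB3 (left) and ITGA2B (right) in CPM by day in unsorted cells of the mesoderm protocol (blue WT, orange KO) and the endoderm protocol (green). Points are libraries and lines join the means. ITGB3 climbs in endoderm to between 14.6 and 20.3 CPM at day 7, and in mesoderm its WT mean is highest at day 2.

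Across all 65 libraries the genes followed more than one pattern. Pearson's r of log2(CPM + 1), a description over libraries that share groups and depth, was 0.955 between PPBP and GP9 and 0.933 between PPBP and TUBB1. It was 0.865 between GP1BA and GP6, whereas GP6 lay between -0.238 and 0.428 with the other 7 genes. Outside the 9, among 17469 genes, PPBP was most like HBD (0.995), HEMGN (0.987) and C20orf197 (0.987), and GP9 was most like HBD (0.964), HEMGN (0.962) and PRG2 (0.962). HBD encodes delta-globin and PRG2 an eosinophil granule protein. PPBP had a mean of 0.158 CPM or less in every group that was not CD43+, so its values of r are set largely by the CD43+ libraries. PF4 was most like the mast cell protease gene CPA3 (0.883), then GFI1B (0.873) and MYO1F (0.86).

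ITGA2B was most like AC008105.1 (0.937) and PRAM1 (0.925), and NFE2 was most like RHEX (0.928), C11orf21 (0.927) and TREML2 (0.925). TUBB1 was most like FCMR (0.932), PADI4 (0.931) and P2RY13 (0.928). ITGB3 was most like AC068234.1 (0.943), with which it shares exons, then ADPGK (0.902) and ADAM28 (0.886). GP1BA was most like C5orf58 (0.949), CD68 (0.937) and GABRE (0.932), and GP6 like NXF3 (0.905), DDHD1 (0.904) and IL4I1 (0.9).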

How the data were processed

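The submitters' processing notes name GRCh38, cutadapt 1.18, featureCounts and R 3.2.2, with no role or order; libraries were TruSeq, per the labels' protocols. The authors deposited counts of fragments per gene, which are whole numbers with no scaling. The authors also deposited a table of log2(RPKM + 1) values, used here to compare levels between genes and in 1 alternative test. Symbols came from GENCODE 29 for 58039 of 58302 identifiers.

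From the counts, edgeR 4.0.16 (R 4.3.3) was run with TMM scaling, its filter on low counts (minimum count 10, total 15), 1 mean per group and the quasi-likelihood test, with Benjamini-Hochberg adjustment over all genes. The 28 sorted libraries, 24 unsorted mesoderm libraries, 8 libraries of day 4 and day 7, and 12 endoderm libraries were fitted apart, and levels across them rest on 1 scaling of all libraries. The single KO SOX17- CD43- library entered no test. The test was tried on simulated data with known changes.

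Alternatives were median-of-ratios scaling, no filter, DESeq2 1.42.0, limma 3.58.1 on the authors' values, the compared groups alone, blocks and each library left out. The replicate numbers in the titles paired samples (every correlation of deviations over 0.1) at day 7 for KO against WT in SOX17+ cells (0.189 to 0.404), for day 12 against day 7 in WT (0.132 to 0.219) and for KO against WT at day 0 (0.232 to 0.774). The 9 members and all lists were chosen with earlier results of these data known. Named were the members, up to 3 genes of the wider list in each direction with the largest change and a mean of at least 2 CPM in the higher group, and per member the 3 genes most alike over all libraries with a group mean of at least 5 CPM. Some genes that this rule names are not reported here.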

Additional observations from a re-analysis of the deposited data

Results flagged for a closer look

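Of 38 sets of member levels in groups of 4 libraries, 3 had a library far from the others by Dixon's criterion, which chance meets in about 1 of 20. PF4 was at 10.4 CPM in library 4 of the WT SOX17- CD43- cells of day 7, against 1.53 to 2.28 in the others. ITGA2B reached 5.08 CPM in 1 unsorted KO library of day 4, and ITGB3 reached 4.44 CPM in 1 unsorted KO library of day 2.

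The single KO SOX17- CD43- library of day 12 belongs to no comparison. It held 2.74 CPM of PF4, 11.1 of GP1BA, 7.38 of GP6 and 1.62 of TUBB1, each above every KO SOX17+ CD43- library of the same day. With 1 library there was no test. It held 1 count of PPBP and 0.562 CPM of NFE2, and its 12 myeloid markers summed to 8.93 CPM.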

How the results depend on the processing

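Of 302 recomputed counts of the members that passed, 286 stayed within 1.5 times the count given, and of 904 recomputed single results 847 kept direction and side of the threshold, 25 were lost, 32 gained and 0 reversed. Without the filter on low counts the members passing were 1 for KO against WT at day 7 in SOX17- cells (0 in the main analysis) and 1 at day 12 (0), 4 for day 12 against day 7 in WT (2), 1 for SOX17+ against SOX17- at day 7 in KO (0) and 5 for endoderm day 7 against day 0 (3). DESeq2 gave 1 for KO against WT at day 12 (0) and 4 for day 12 against day 7 in WT (2). With the compared groups alone there were 0 for SOX17+ against SOX17- at day 7 in WT (2), 2 in KO (0) and 1 for mesoderm day 4 against day 2 (2). With the replicate block, or with library-number runs as a block, 1 passed for SOX17+ against SOX17- at day 7 in KO (0); the block moved no other count of members by over 1.5 times. By gene, the replicate block gave a call to PF4 there (adjusted p = 0.0396) and to GP6 in WT (adjusted p = 0.0351), where the numbers did not meet the criterion for pairing (correlations of 0.043 to 0.222 and 0.069 to 0.275), and it ended that of TUBB1 for day 7 against day 4. With 1 library left out at a time the counts were 0 to 1 for KO against WT at day 12 (1 without WT library 1), 1 to 2 for SOX17+ against SOX17- at day 7 in WT (1 without library 4 of either group) and 1 to 2 for mesoderm day 4 against day 2 (1 without day 2 library 1). Leaving out day 7 SOX17- library 4 and day 12 SOX17- CD43+ library 1 together, chosen after seeing the data, left 9 members passing for SOX17- CD43+ against SOX17+ CD43-, 8 (7) between the CD43+ fractions and 2 for SOX17+ against SOX17- at day 7 in WT. The causes of these shifts were not tested.

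Depth limits the low genes. NFE2 in KO, PF4 in CD43- cells of day 12 and GP9 outside CD43+ cells rest on few counts, and PPBP could not be compared between genotypes. Groups of 2 to 4 libraries limit all comparisons, and overlapping genes limit ITGB3, GP1BA, GP6 and TUBB1.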
